A study of Sus scrofa with 2 samples.

Results

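The enzymes described here break down phenylalanine and tyrosine in liver, keep the cofactor tetrahydrobiopterin in its active form, and make catecholamines from tyrosine. They were chosen by name, as 9 genes (TAT, HPD, HGD, GSTZ1, FAH, QDPR, GCH1, TH and DDC) out of 21442 genes in a table of RNA sequencing counts. A row counted for a gene if it carried the gene's symbol or, where it carried only a LOC number, if its product field named the enzyme. Rows of the same gene were added together. By this rule 7 of the 9 genes had a row, and all 7 reached at least 1 scaled count per 1000000 (CPM) in at least 1 library. TAT, the tyrosine aminotransferase, and TH, the tyrosine hydroxylase, were not matched to a row and are not analysed here.

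The tissues compared were brain and liver of the Rongchang pig, a Chinese domestic breed of Sus scrofa, each with 1 library. No treatment, genotype, age or sex is stated in the labels, nor the region of the brain or whether a single animal gave both tissues. Counts summed to 23796843 for brain and to 31724498 for liver. With 1 library per tissue there is no replicate and no test, so each fold below compares these libraries, and its 95% interval covers counting error only.

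Most tyrosine in the body that is not used for protein is degraded in hepatocytes. Tyrosine loses its amino group and is then converted to homogentisate, to maleylacetoacetate and fumarylacetoacetate, and at last to fumarate and acetoacetate. Tetrahydrobiopterin, the cofactor of the aromatic amino acid hydroxylases, is made from GTP in a path that GCH1 opens and is recycled by PCBD1 and QDPR. In catecholamine neurons and adrenal chromaffin cells it serves amine synthesis: TH turns tyrosine into DOPA, DDC turns DOPA into dopamine, and the amines are later cleared by monoamine oxidases, sulfation and other routes.

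Both libraries held the genes that define their tissue. All 5 neuronal genes with a row, all 4 astrocyte genes and the 3 oligodendrocyte genes at or above 1 CPM were at 4-fold or more in brain, with the neuronal STMN2 at 2035 CPM there and 0.463 in liver. The 7 hepatocyte genes all passed 4-fold toward liver, where ALB stood at 276195 CPM against 44.7 in brain. Markers of kidney tubule reached at most 1.76 CPM in either library and those of adrenal gland 2.38 CPM.

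All 7 measured enzymes were higher in liver. The log2 ratio used throughout divides brain by liver after 1 CPM is added to both, and a gene counts as called at 2 or above (brain) or -2 or below (liver), which is 4-fold. The 7 genes were called in liver and 0 in brain, where 11.3% of 15570 genes above the CPM minimum were called in liver and 14.6% in brain. HPD, HGD and GCH1 passed the minimum through liver alone, so that they had to differ, and the count of called genes is a description only. With plain library size in place of TMM scaling, 6.01% of genes were called in liver and 24.1% in brain, and 6 of the 7 enzymes stayed at 4-fold or more in liver. The exception was QDPR. Plain library size moves the median log2 ratio of all these genes from 0.02 to 0.97, so every fold toward liver is smaller under it: 2263 for HPD, 416 for HGD, 14.1 for GCH1 and 11.4 for GSTZ1.

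**Figure D1:**
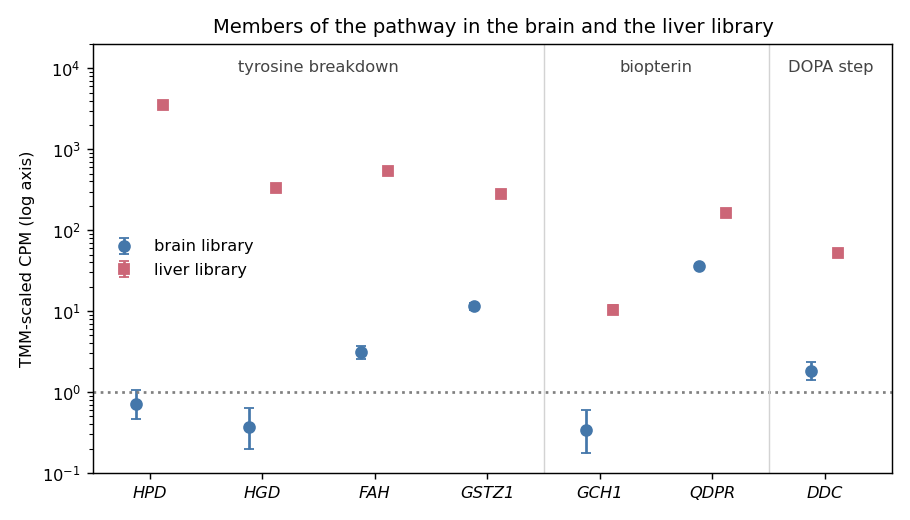
TMM-scaled CPM (log axis) of the 7 measured enzymes in the brain library (circles) and the liver library (squares), with 95% Poisson intervals that cover counting error, and the minimum of 1 CPM as a dotted line. Every liver value lies above the brain value of the same gene, and HPD, HGD and GCH1 lie under the line in brain.

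Of the 7 measured enzymes, the breakdown enzymes HPD, HGD and FAH gave the widest differences. HPD, the dioxygenase that turns 4-hydroxyphenylpyruvate into homogentisate, had 25 counts in brain and 75430 in liver, or 0.715 and 3492 CPM. The fold toward liver was 4881 (interval 3306 to 7542.5), and 13 of the 15570 genes had a log2 ratio further toward liver. HPD alone made up 0.238% of all liver counts. HGD, which opens the ring of homogentisate, had 13 counts in brain and 7205 in liver, equal to 0.372 and 334 CPM. Its fold was 897 toward liver (524 to 1685). In a bulk sample, fewer cells of a type and less RNA per cell cannot be told apart, so these folds do not say whether few brain cells or many carry the transcripts.

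The enzymes that finish the path were also higher in liver, but with brain counts that were a larger percentage of their liver counts. FAH, the hydrolase that releases fumarate and acetoacetate, had 108 brain counts and 11524 liver counts (3.09 and 533 CPM) with a fold of 173 toward liver (143 to 211). The row of FAH carried a LOC number and was matched by its product name, fumarylacetoacetase-like. GSTZ1, the glutathione transferase that isomerizes maleylacetoacetate, had 399 counts in brain and 6059 in liver, which is 11.4 and 280 CPM. It was 24.6-fold higher in liver (22.2 to 27.3). GSTZ1 belongs to a transferase class that also acts on dichloroacetate, a use outside tyrosine breakdown.

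These enzymes of a single path therefore did not differ by the same factor. A ratio between 2 genes, compared between the libraries, does not depend on how the libraries are scaled or on transcript length. For each GSTZ1 count there were 12.4 HPD counts in liver and 0.0627 in brain, a 199-fold change of the ratio (132 to 311). FAH counts per GSTZ1 count were 1.90 in liver and 0.271 in brain, a 7.03-fold change (5.65 to 8.79). Besides 6 ratios between neighbours in the order of folds, given below, 10 such ratios were computed. Of these 10, 1 compared rows of the same gene, and no p-value was attached to any ratio.

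Other genes linked to tyrosine breakdown did not pass the threshold. GOT2, the mitochondrial aspartate aminotransferase, which can also act on tyrosine, had 480 brain counts and 1119 liver counts, a log2 ratio of -1.84, and of -0.78 with plain library size. GOT1, its cytosolic counterpart, was at 269 and 465 CPM, a log2 ratio of -0.79 that turned to 0.32 with plain library size. Of 5 such genes, all above the CPM minimum, 0 were called in either tissue, against 11.3% of all genes in liver and 14.6% in brain. So few genes cannot show a departure from these shares. Their median log2 ratio was 0.58, against 0.02 for all genes. With plain library size 2 were called in brain, as were 24.1% of all genes.

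HPDL, a mitochondrial relative of HPD, went in the other direction, and whether it takes part in tyrosine breakdown was not tested. It had 116 counts in brain and 6 in liver, equal to 3.32 and 0.278 CPM, a fold toward brain whose interval ran from 5.33 to 33.2. The log2 ratio of HPDL, 1.76, missed the call because 1 CPM is added to each value, which pulls low genes toward 0, and with plain library size it was 2.30. HPDL passed the CPM minimum through brain alone and was chosen after its value was seen.

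**Figure D2:**
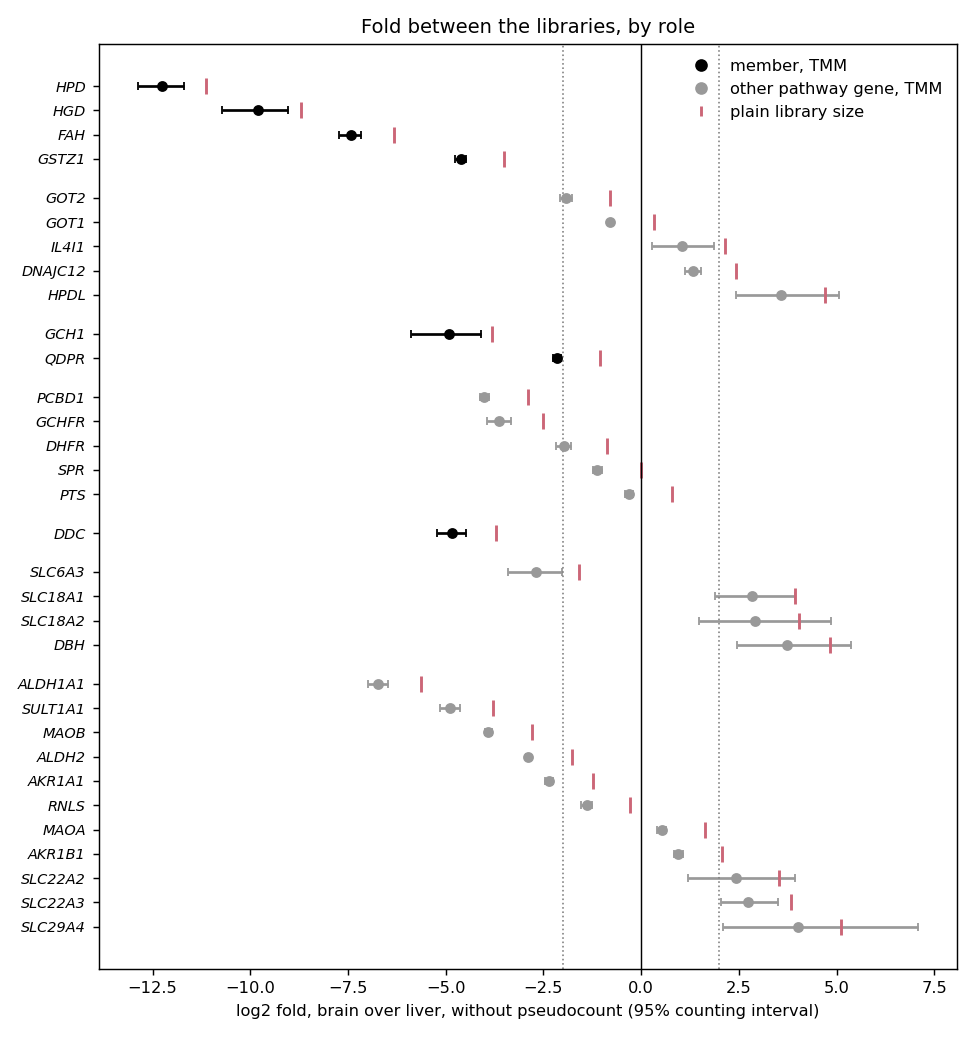
Log2 fold, brain over liver, of scaled counts without a pseudocount, for the 7 measured enzymes (black) and other genes of breakdown, cofactor and amine steps above 1 CPM (grey), grouped by role, with 95% exact conditional binomial intervals. Red bars give the fold with plain library size, the solid line marks equal levels and dotted lines mark 4-fold. HPD, HGD and FAH lie farthest toward liver, while HPDL, DBH and SLC29A4 lie on the brain side.

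The brain counts of HPD were near the level at which the main liver transcript appeared in brain. ALB, the serum albumin gene, had 1563 brain counts, 0.0262% of its liver count. This was the lowest such percentage of the 7 hepatocyte genes, and the others ran from 0.0359% for HP to 3.40% for APOA1. HPD in brain amounted to 0.0331% of its liver count (0.0214 to 0.0489), an interval that holds the ALB percentage. The other measured enzymes lay wholly above it, from HGD at 0.180% (0.0960 to 0.309) and FAH at 0.937% to QDPR at 36.3%. With the ALB percentage of each liver count subtracted from the brain count, the log2 ratio of HPD moved from -10.99 to -11.57 and that of HGD from -7.93 to -7.99. The titles of the samples give both libraries lane 3 and barcode 6. What part of the HPD counts in brain came from liver RNA or liver reads was not tested.

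**Figure D3:**
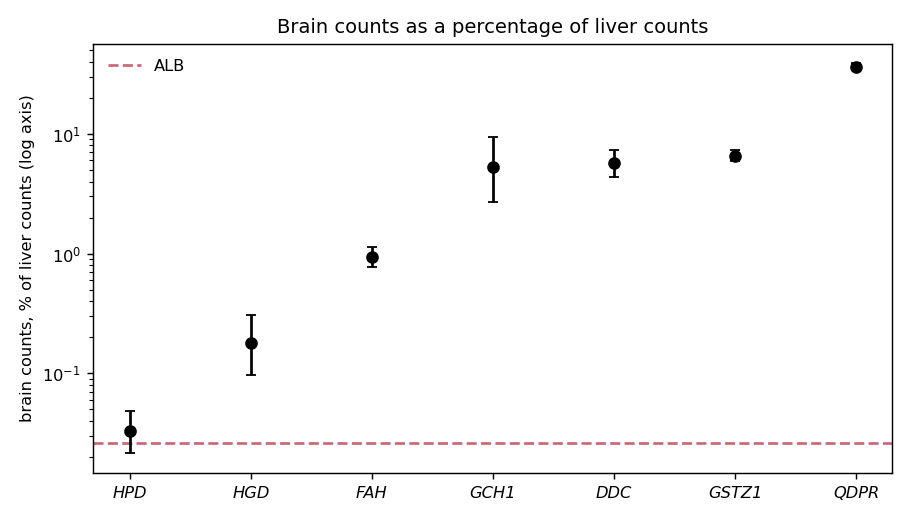
Brain counts as a percentage of liver counts (log axis), unscaled, for the 7 measured enzymes, with 95% exact conditional binomial intervals. The dashed line is ALB at 0.0262%, and among the genes drawn only the interval of HPD reaches it.

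Of the 2 cofactor enzymes, QDPR differed least of all 7 measured enzymes, while GCH1 lay within counting error of GSTZ1 and DDC. QDPR, the dihydropteridine reductase that returns the spent cofactor to tetrahydrobiopterin, had 1264 counts in brain and 3482 in liver, 36.2 and 161 CPM. QDPR thus passed the threshold narrowly, at 4.46-fold toward liver (4.18 to 4.76), and stood at 2.07-fold with plain library size. At a log2 ratio of -2.13, it had 1611 of the 15570 genes further toward liver. GCH1, the GTP cyclohydrolase that opens cofactor synthesis, had few counts in both libraries. It had 12 counts in brain and 225 in liver, or 0.343 and 10.4 CPM, and differed 30.3-fold (17.0 to 59.6). The row of GCH1 was matched by product name alone and lies on a scaffold outside the assembled chromosomes, as does that of HGD. Whether the genome holds a further copy was not tested.

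The path from GTP to tetrahydrobiopterin was not divided between the tissues as a block. PTS, the synthase that follows GCH1, had 1673 counts in brain and 1290 in liver, or 47.9 and 59.7 CPM, a log2 ratio of -0.31 that turned to 0.78 with plain library size. SPR, the sepiapterin reductase that completes synthesis, was at 33.9 and 73.6 CPM, a log2 ratio of -1.10, and of -0.01 with plain library size. PTS counts per QDPR count were 1.32 in brain and 0.370 in liver, a 3.57-fold change (3.24 to 3.94) that no scaling can alter. QDPR recycles the cofactor and lies outside this path, and no such ratio of PTS to GCH1 was computed. Neither PTS nor SPR was called.

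The recycling partner of QDPR and the regulator of GCH1 lay toward liver. PCBD1 is the dehydratase that acts before QDPR in recycling. It had 643 brain counts and 6410 liver counts, 18.4 and 297 CPM, which is 16.1-fold toward liver (14.9 to 17.5). PCBD1 counts per QDPR count were 1.84 in liver and 0.509 in brain, so the change was 3.62-fold (3.26 to 4.02). GCHFR, the protein through which phenylalanine and tetrahydrobiopterin act on GCH1, had 106 counts in brain and 813 in liver and was 12.4-fold higher in liver (10.1 to 15.3). GCH1 counts per GCHFR count were 0.277 in liver and 0.113 in brain (2.44-fold, 1.31 to 4.97). Among 7 further cofactor genes, 6 had a row and 5 passed the CPM minimum. Of these, 2 were called in liver and 0 in brain (11.3% and 14.6% of all genes), with a median log2 ratio of -1.88.

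Enzymes that use tetrahydrobiopterin were split. Of 6 listed beside TH, 5 passed the CPM minimum. Of these, 2 were called in liver and 0 in brain (median log2 ratio -0.05), against 11.3% and 14.6% of all genes. Those called were AGMO, the monooxygenase that cleaves ether lipids, at 1.86 CPM in brain and 67.0 in liver, and TPH1. TPH1, the tryptophan hydroxylase known from gut and pineal gland, was at 0.401 and 16.1 CPM. It passed the minimum through liver alone, so that it had to differ. NOS3, the endothelial nitric oxide synthase, had 558 brain counts and 321 liver counts, a log2 ratio of 0.10, and of 1.14 with plain library size. NOS2, the inducible form, was at 1.17 and 1.25 CPM, a log2 ratio of -0.05 that turned to 0.56 with plain library size. NOS1, the neuronal form, which passed the minimum through brain alone and was chosen after its value was seen, had 69 brain counts and 3 liver counts, 14.2-fold toward brain (4.67 to 70.6), with a log2 ratio of 1.39. TPH2, the neuronal tryptophan hydroxylase, had 7 counts in brain and 17 in liver and did not reach the CPM minimum.

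DDC, which decarboxylates DOPA and 5-hydroxytryptophan, was the measured member that stands for amine synthesis. It had 64 counts in brain and 1128 in liver, or 1.83 and 52.2 CPM, and thus lay 28.5-fold toward liver (22.2 to 37.3). With plain library size the fold was 13.2. The value sums 2 rows that follow each other in the table. The row with the DDC symbol had 55 brain and 872 liver counts, and the row named aromatic-L-amino-acid decarboxylase-like had 9 and 256. Counts of the DDC-symbol row per count of the other were 6.11 in brain and 3.41 in liver, a ratio of 1.79 whose interval (0.864 to 4.19) includes 1, so the rows did not differ in tissue pattern beyond counting error.

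Of 6 genes of catecholamine synthesis and storage beside DDC and TH, all had a row and 4 passed the CPM minimum. In liver and in brain 0 were called, against 11.3% and 14.6% of all genes, and 4 genes are too few to depart from these shares. Of these 4, SLC6A3 was higher in liver and DBH, SLC18A1 and SLC18A2 in brain. Each passed the minimum through its higher tissue alone, so a difference was built into passing, and the values that follow are a description. DBH, which turns dopamine into noradrenaline, had 107 counts in brain and 5 in liver, 3.06 and 0.231 CPM, a 13.2-fold difference (5.50 to 41.6). The vesicular monoamine transporters SLC18A1 and SLC18A2 had 115 and 49 brain counts against 10 and 4 in liver, and were 7.11-fold (3.73 to 15.2) and 7.57-fold (2.78 to 28.9) higher in brain. Per DDC count, DBH had 1.67 counts in brain and 0.00443 in liver. DBH and SLC18A2 were chosen after their values were seen.

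These genes had few counts in both libraries. The dopamine transporter SLC6A3 had 24 counts in brain and 96 in liver, a 6.47-fold difference toward liver (4.10 to 10.6) with a log2 ratio of -1.69. PNMT, which makes adrenaline, had 1 count in brain and 0 in liver, and the noradrenaline transporter SLC6A2 had 17 and 8. PNMT and SLC6A2 lie outside the rule by which genes were named. The summed level of the 6 genes was 8.96 CPM in brain and 5.69 in liver.

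Transcripts of the monoamine oxidases, which clear amines, were counted in both tissues. MAOA, which prefers serotonin and noradrenaline, had 1947 counts in brain and 835 in liver, 55.7 and 38.7 CPM, 1.44-fold toward brain (1.33 to 1.57). MAOB, which prefers phenylethylamine, had 1320 counts in brain and 12269 in liver, 37.8 and 568 CPM, 15.0-fold toward liver (14.2 to 15.9). MAOA counts per MAOB count were 1.48 in brain and 0.0681 in liver, a 21.7-fold change (19.6 to 24.0). MAOA was chosen after its value was seen.

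Several other clearance enzymes lay toward liver. SULT1A1, a phenol sulfotransferase, was at 3.72 and 111 CPM (29.7-fold, 24.9 to 35.7). The aldehyde dehydrogenases ALDH1A1 and ALDH2, which oxidize the aldehydes that monoamine oxidases leave, were 107-fold and 7.41-fold higher in liver, and the aldehyde reductase AKR1A1 was 5.10-fold higher. The aldose reductase AKR1B1 had 63.6 CPM in brain against 33.0 in liver, a log2 ratio of 0.93, and of 2.01 with plain library size. Of 12 clearance genes listed, 11 had a row and passed the CPM minimum. Of these, 5 were called in liver and 0 in brain (median -1.35), against 11.3% and 14.6% of all genes. Plain library size gave 3 and 2 of them, against 6.01% and 24.1% of all genes. ALDH2 then moved to -1.77 and AKR1A1 to -1.22.

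Of the low-affinity amine transporters, none was called, against 11.3% of all genes in liver and 14.6% in brain. SLC22A3 and SLC29A4 passed the CPM minimum through brain alone. SLC22A3, the extraneuronal monoamine transporter, had 204 counts in brain and 19 in liver and was 6.64-fold higher in brain (4.14 to 11.3). SLC29A4, the plasma membrane monoamine transporter, had 52 and 2 counts, a 16.1-fold difference (4.23 to 136). Their log2 ratios of 1.86 and 1.19 fell short of a call at a pseudocount of 1 CPM. Both were chosen after their values were seen.

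Ordered by fold toward liver, the 7 measured enzymes ran from HPD through HGD, FAH, GCH1, DDC and GSTZ1 to QDPR. HPD and HGD differed by a factor of 5.44 (2.56 to 11.1), HGD and FAH by 5.19 (2.91 to 10.1), and FAH and GCH1 by 5.69 (2.81 to 10.5). GCH1 and DDC did not differ beyond counting error (1.06, 0.557 to 2.20), nor did DDC and GSTZ1 (1.16, 0.882 to 1.55) or GCH1 and GSTZ1 (1.23, 0.685 to 2.45). GSTZ1 and QDPR differed by 5.51 (4.88 to 6.23). On the log2 ratio with 1 CPM added, GCH1 at -3.09 came after GSTZ1 at -4.50 and DDC at -4.23, so the order of these 3 also depends on the pseudocount.

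Genes of like ratio were sought among named genes whose mean log2 level lay within 1 of the member's, over the 2 libraries. Nearest to HPD (-10.99) among 2344 genes were CPS1 of the urea cycle (-10.96), the antithrombin gene SERPINC1 (-10.96) and AFM, an albumin relative (-10.96). Nearest to QDPR (-2.13) among 2336 genes were PDK4, a pyruvate dehydrogenase kinase (-2.12), SEC11A, a signal peptidase subunit (-2.13), and MDH2, a mitochondrial malate dehydrogenase (-2.11). With only 2 libraries, likeness means an equal ratio and no more.

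**Figure D4:**
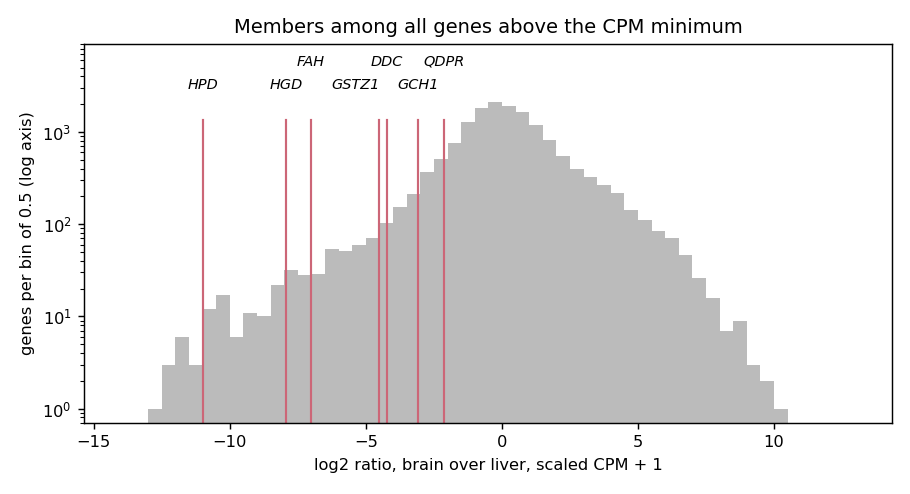
Number of genes (log axis) per bin of 0.5 of the log2 brain-to-liver ratio (1 added to each scaled CPM) for 15570 genes, with the 7 measured enzymes as red lines. All lines lie left of 0, from QDPR at -2.13 to HPD at -10.99, where 13 genes lie further left.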

How the data were processed

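The authors deposited 1 table with raw counts per gene row for brain and for liver. The columns hold whole numbers with unequal totals, which is why they were taken as counts. The table also gives a length in bp, deposited by the authors with no stated meaning, which was not used. Per the submitters' processing notes, TopHat and the build Sscrofa10.2 (susScr3) were used. No counting program, strand setting or TopHat version is named in the sources used here, so reads of overlapping genes and of near-identical copies may be shared.

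Of 21817 rows, 7830 carried a symbol, 6 were matched by product, and a RefSeq table named 6591 through the gene number, 365 through a transcript accession and 26 through a synonym. That table was of the assembly Sscrofa11.1 and served for names only. The 6999 unnamed rows entered all totals. edgeR 4.0.16 under R 4.3.3 supplied TMM scaling alone and no test. Its factors, 1.47 (brain) and 0.681 (liver), make 1 CPM equal to 34.9 counts in brain and 21.6 in liver. Levels were not corrected for transcript length, so the order of levels between genes was used only to choose which list genes to name and for a level window around HPD and QDPR. Folds have exact conditional binomial intervals, and ratios of ratios have conditional odds ratio intervals (SciPy 1.17.1), at 95%. Intervals of CPM are Poisson intervals.

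The members and all lists were chosen with earlier results of these data known. From each list the text names the called genes and the 2 highest others by mean level, and says where it goes outside this rule. The lists were further genes of tyrosine breakdown, of the cofactor, of its users, of amine synthesis and storage, of amine clearance, of melanin synthesis and of aromatic amino acid transport, together 46 genes, and regulators and cell markers. Some genes of these lists are not reported here and were left out of the lists' counts. No sequences were used, and promoter motifs were not analysed here. Other scalings, pseudocounts, filters, folds, the highest row per gene and subtraction of the ALB percentage were tried as alternatives. An interval rule was added after the data were seen.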

Additional observations from a re-analysis of the deposited data

How the results depend on the processing

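Of the 7 measured enzymes, all were at 4-fold or more in liver under every setting tried except plain library size (without QDPR), a pseudocount of 5 CPM (without GCH1) and a threshold of 8-fold (without QDPR), which each gave 6, and 0 were in brain under any. Of all genes, 6.01% were called in liver with plain library size, 7.17% with a pseudocount of 5 CPM and 5.68% at 8-fold. The settings used throughout gave 11.3%, and a threshold of 2-fold gave 24.4%. Of 49 log2 ratios recomputed, 0 changed sign, 32 moved within counting error and 17 beyond it. The log2 ratio of HPD ran from -12.06 to -9.26, of HGD from -9.47 to -5.98, of GCH1 from -4.57 to -1.53 and of QDPR from -2.15 to -1.03.

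Of the other pathway genes, 35 of 46 passed the CPM minimum. Of these, 10 were called toward liver and 1, SLC7A8, toward brain, against 11.3% and 14.6% of all genes. Brain calls, each beside the percentage of all genes called in brain, came to 8 (24.1%) with plain library size, 4 (15.7%) with TMM without the 50 highest genes, 9 (20.5%) with a pseudocount of 0.1 CPM, 10 (27.5%) at a threshold of 2-fold and 0 (8.54%) at 8-fold. They were 6 (17.1%) without a pseudocount where the interval lies wholly at 4-fold or more, a rule chosen after seeing the data. Depth limits the brain values of HPD, HGD and GCH1, which rest on 12 to 25 counts. No paired analysis was possible because each tissue had 1 library.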

Other observations

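Carriers of aromatic amino acids, through which both tissues take up tyrosine, were divided. SLC7A8, a light chain of the exchanger for large neutral amino acids, had 1483 counts in brain and 133 in liver and was 6.89-fold higher in brain (95% interval 5.77 to 8.29). SLC3A2, the heavy chain that such exchangers share, had 40.3 CPM in brain against 12.8 in liver, a log2 ratio of 1.58, and of 2.63 with plain library size. SLC43A2, a facilitated carrier of large neutral amino acids, was 10.1-fold higher in liver (8.92 to 11.5). SLC16A10, a carrier specific for aromatic amino acids, was at 5.01 and 7.41 CPM, a log2 ratio of -0.48 that turned to 0.47 with plain library size. Of 7 carriers, 5 had a row, 4 passed 1 CPM, and 1 was at 4-fold or more in each tissue (median 0.55). Of all genes, 11.3% were called in liver and 14.6% in brain.

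Transcription factors of the tissues in which these enzymes act were also counted. Of 5 hepatic regulators listed, 4 were called in liver, HNF4A, CEBPA, FOXA2 and NR1I2, against 11.3% of all genes. HNF4A and FOXA2 passed 1 CPM through liver alone, so that they had to differ. CEBPA was at 4.44 and 98.1 CPM (brain and liver) and NR1I2 at 2.03 and 177 CPM. The glucocorticoid receptor gene NR3C1 was at 17.3 and 22.0 CPM, a log2 ratio of -0.33 that turned to 0.73 with plain library size. Of 7 regulators of catecholamine neurons, 2 passed 1 CPM and 0 were called, against 11.3% of all genes in liver and 14.6% in brain. With 2 genes, a count of 0 is no departure from these shares. NR4A2 stood at 8.13 CPM in brain against 1.76 in liver, a ratio of 4.62 (3.29 to 6.66). With 1 CPM added to both values its log2 ratio was 1.73, short of a call, while plain library size gave 2.56. GATA2 was at 4.35 and 2.31 CPM. Of 3 genes of melanin synthesis, DCT alone passed 1 CPM, with 80 counts in brain and 16 in liver. The serotonin transporter gene SLC6A4 had 12 and 14 counts.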
